A study of Homo sapiens and Mus musculus with 16 samples.

Results

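The histone lysine methyltransferases and demethylases are the enzymes that write and erase methyl groups on the lysines of histone tails. Their genes were chosen by symbol alone: every KMT and KDM gene named with a digit and a letter, the numbered SETD genes, SETDB1, SETDB2, NSD1 to NSD3, EHMT1 and EHMT2, with KDM5D left out. This gave 41 of the 22286 genes in the human table and 38 of the 15881 genes in the mouse table. The 38 mouse genes each had a human counterpart of the same symbol, and KDM4D, KDM4E and SETD9 were in the human table only. The measured quantity was the level of each mRNA in purified P-bodies relative to the cytoplasm.

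Histone methyltransferases mostly carry a SET domain and move a methyl group from S-adenosylmethionine to a lysine, and the site decides the usual reading of the mark: methylated lysine 4 and lysine 36 of histone H3 (H3K4, H3K36) accompany active genes, whereas methylated lysine 9 and lysine 27 (H3K9, H3K27) accompany silent ones. Demethylases remove the same marks, either with FAD (the KDM1 enzymes) or with iron and 2-oxoglutarate (the Jumonji C enzymes). Many of these enzymes come as close paralogues with a shared catalytic mechanism, and several are dosage-sensitive regulators of stem cell differentiation and of neural development. P-bodies are cytoplasmic condensates that hold mRNAs together with repressors of translation and decapping factors.

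P-body-seq sorts particles marked by LSM14A fused to GFP from lysed cells, and the RNA of these particles was sequenced beside RNA of the cytoplasmic fraction from which they were sorted. By the paper's methods this fraction was a resuspended pellet of the lysate without nuclei, taken before sorting. It thus still held P-bodies and lacked what stayed in the supernatant, and it is what cytoplasm means below. The 4 cell types were HEK293T (from human embryonic kidney), neurons at day 20 of differentiation, liver bud progenitors and mouse embryonic stem cells (mESC, line KH2, kept in serum and LIF), sequenced as 2 libraries from P-bodies and 2 from cytoplasm. HEK293T cells and mESCs received GFP-LSM14A by lentivirus under the EF1a promoter, and liver bud progenitors and neurons were both derived from UCLA4 human embryonic stem cells with GFP-LSM14A inserted at AAVS1, so all 16 libraries come from cells with added LSM14A and no group lacks it. HEK293T and mESC libraries are labelled total RNA and the other libraries polyA RNA, so that library type and cell type cannot be told apart between these pairs of cell types. Each test below is therefore a contrast of P-body with cytoplasm within a cell type, or a comparison of neurons with liver bud progenitors, which share the stem cell line and the library type. Values of other cell types are set side by side without a test of their difference.

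Total counts per library ranged from 6368953 to 17972284, and the members held between 0.644 and 1.41% of them. Replicates correlated over genes with Spearman's rho of 0.911 to 0.987, lowest for the neuron P-body libraries. Replicates differed by more than sampling noise (chi-square of 2.21 to 28.1 per gene), so none was taken for a copy of another. Neuron markers summed to 12245 to 12310 CPM (counts scaled to a common library total by TMM within a comparison) in the neuron cytoplasm, beside 149.8 to 173 CPM of glia markers. In liver bud progenitor cytoplasm all 8 of 8 liver bud and endoderm markers lay above 3 counts per library and summed to 372 to 380.0 CPM, beside 1690 to 1691 CPM of pluripotency markers, and mouse ES cell markers summed to 4933 to 4945 CPM in mESC cytoplasm. Nuclear RNA markers were lower in P-bodies than in cytoplasm in HEK293T (2226 to 2349 against 8426 to 9433 CPM), liver bud progenitors (2370 to 2402 against 4110 to 4326 CPM) and neurons (3258 to 3334 against 8120 CPM in both libraries). In mESC they were close (728 to 729 against 684 to 708 CPM), but over 6 of 7 markers, because RN7SK had no value there. RN7SK alone had 6402 and 6534 CPM in neuron cytoplasm (scaled with the liver bud libraries), so the mESC sum is not comparable with the human ones. The part of nuclear RNA in the members' differences was not tested. In such bulk fractions, more particles holding an mRNA and more copies per particle cannot be told apart.

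In HEK293T 21 of 41 members were enriched in P-bodies and 10 were depleted, where 19.3% of all genes tested were enriched and 22.8% depleted (edgeR quasi-likelihood test, Benjamini-Hochberg adjusted p under 0.05 over all genes, 2 libraries per fraction). The members' median log2 difference between P-body and cytoplasm was 0.34, against -0.0072 over all genes. In liver bud progenitors 15 members were enriched and 19 depleted, against 21.4% and 17.1% of all genes, and the median was -0.13 against -0.092. In neurons 16 were enriched and 9 depleted, against 14.6% and 14.1% of all genes, and the median was 0.25 against 0.19. In mESC 19 of 38 were enriched and 8 depleted, against 25.8% and 20.6% of all genes, and the median was 0.20 against -0.11. As shares of the members, 51.2% were enriched and 24.4% depleted in HEK293T, 50.0 and 21.1% in mESC, 39.0 and 22.0% in neurons and 36.6 and 46.3% in liver bud progenitors.

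Nearly all members averaged 1 CPM or more (40 of 41 in HEK293T and all in the other cell types), and genes at that level are the nearer background. Among them 32.0% were enriched and 38.0% depleted in HEK293T, 19.9 and 21.1% in neurons, 33.8 and 20.2% in mESC and 32.3 and 24.6% in liver bud progenitors. Their median log2 difference was -0.13, -0.12, 0.040 and 0.048 in the same order. Beside these genes the members' share was higher for enrichment in HEK293T, neurons and mESC and for depletion in liver bud progenitors, lower for depletion in HEK293T, and within a few percentage points for the rest. The members' median also depended on single libraries. In neurons it was 0.090 without P-body replicate 2, and the median of all genes was then 0.070. In liver bud progenitors it was -0.0066 without cytoplasm replicate 2, -0.25 without cytoplasm replicate 1 and -0.18 without P-body replicate 2.

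The scaling of the libraries bears on these counts. With library size alone in place of TMM, the median of all genes moved by -0.13 in HEK293T, 0.17 in neurons, -0.40 in mESC and -0.18 in liver bud progenitors, and the share of all calls that were enrichments changed to 44.1% from 55.7% in liver bud progenitors, to 62.0% from 50.8% in neurons and to 28.2% from 55.6% in mESC. The members' own balance turned in mESC, where 12 were then enriched and 19 depleted, with a median of -0.20. The log2 differences given here are relative to the TMM reference of each comparison.

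The members split in a way that recurred across cell types. KDM3A, KDM5A, KDM6A, KDM7A, KMT2C, KMT2E, KMT5B, NSD1 and SETD2, 9 in all, were enriched in P-bodies of all 4 cell types. EHMT2, KDM6B, KMT2B, KMT2D and SETD1A, 5 in all, were depleted in all 4. Over the 3 human cell types, 10 of 41 members were enriched in each and 9 depleted in each, where 8.44% and 5.77% of the 21461 genes tested in all 3 did so. A further 6 members, EHMT1, KDM4C, KDM5B, SETD5, SETD6 and SETDB1, were enriched in at least 1 cell type and depleted in another, and SETD9 was called in none. The share of all genes was not computed for patterns over 4 cell types or for calls in both directions. The counts of 9, 5 and 6 members are therefore descriptions only. Across the members the log2 differences of any pair of cell types gave a Spearman's rho of 0.62 to 0.83 (38 or 41 genes, which share the libraries), where all genes gave 0.16 to 0.41. These all-gene correlations and the all-gene shares above include genes with few counts. Neither was computed for genes that averaged 1 CPM or more, so the recurrence is not shown to be particular to the members.

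**Figure D1:**
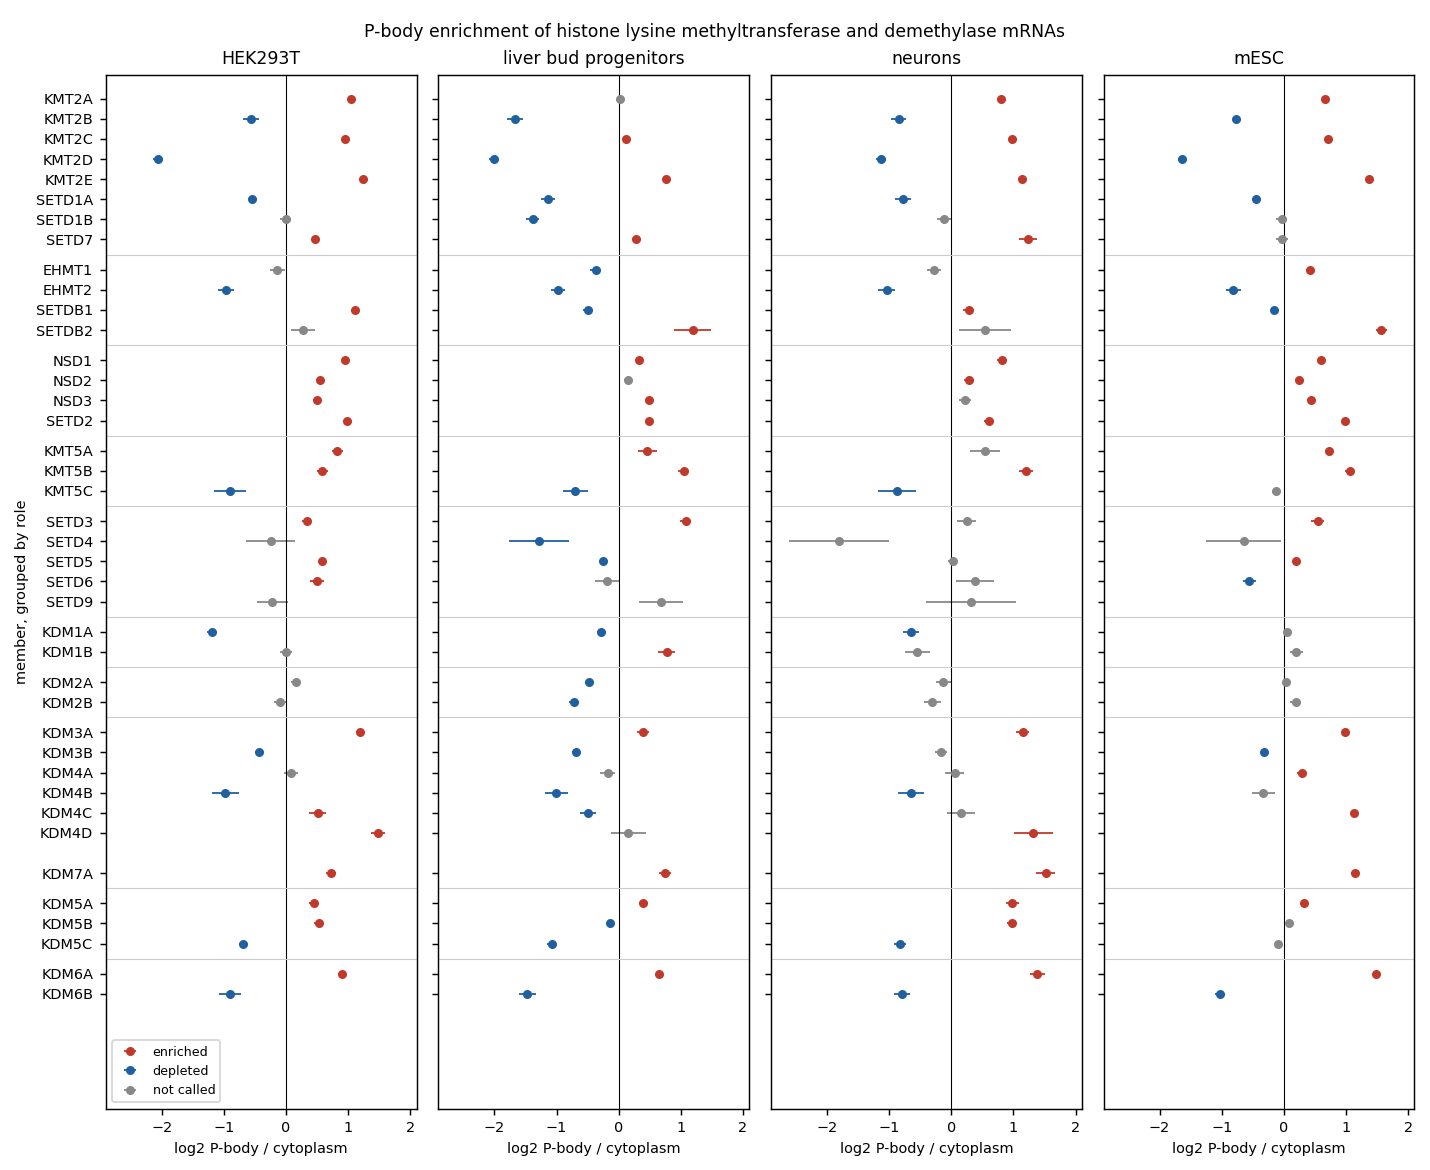
Log2 difference between P-body and cytoplasm (x axis) for each member (rows, grouped by role: H3K4, H3K9, H3K36 and H4K20 methyltransferases, other SET domain proteins, then amine oxidase, KDM2, KDM3/KDM4/KDM7, KDM5 and KDM6 demethylases) in 4 cell types, with bars of 1 standard error and n = 2 libraries per fraction. Red points passed the test as enriched and blue as depleted, and KDM4E (1 to 41 counts per library) is not drawn. KMT2D sits at -2.07, -2.01, -1.13 and -1.65 from left to right, while KMT2E sits at 1.25, 0.77, 1.14 and 1.36.

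Among the H3K4 methyltransferases, KMT2E had the smallest p of all enriched members in every cell type. KMT2E (MLL5) is a SET domain protein that reads H3K4 methylation more than it writes it. Its level was 1535 and 1509 CPM in the HEK293T P-body libraries and 656 and 627 CPM in the cytoplasm, a log2 difference of 1.25 ± 0.049 (SE, adjusted p = 1.32e-30). Liver bud progenitors gave 1427 and 1498 against 872 and 847 CPM, a log2 difference of 0.77 ± 0.046 (adjusted p = 2.95e-23). The fractions did not overlap in either cell type. Neuron P-bodies held 1643 and 1621 CPM and neuron cytoplasm 715 and 765 (1.14 ± 0.073, adjusted p = 1.29e-07). In mESC the levels were 1779 and 1746 against 698 and 670.2 CPM (1.36 ± 0.036, adjusted p = 9.88e-20). Every P-body library of every cell type thus lay above both cytoplasm libraries of its own cell type.

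KMT2C (MLL3) and KMT2D (MLL4) are paralogous catalytic subunits of the complexes that place H3K4 monomethylation at enhancers, and they parted in opposite directions. KMT2D was at 34.4 and 32.6 CPM in HEK293T P-bodies and 136 and 145 CPM in the cytoplasm, a log2 difference of -2.07 ± 0.084 (adjusted p = 4.09e-30). In liver bud progenitors it was at 81.4 and 92.4 against 337 and 362 CPM (-2.01 ± 0.071, adjusted p = 7.18e-35). The fractions did not overlap in either cell type. In neurons the values were 248 and 229.6 against 543 and 501 CPM (-1.13 ± 0.087, adjusted p = 7.06e-07), and in mESC 71.8 and 75.6 against 238 and 223 CPM (-1.65 ± 0.059, adjusted p = 2.57e-17). KMT2D had the smallest p of all depleted members in each cell type.

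KMT2C was at 1275 and 1216 CPM in HEK293T P-bodies and 647 and 647 CPM in the cytoplasm (0.94 ± 0.050, adjusted p = 7.36e-25). Neuron P-bodies held 1543 and 1544 CPM and neuron cytoplasm 771 and 794 (0.98 ± 0.070, adjusted p = 3.66e-07), and mESC P-bodies 713 and 728 against 439 and 437 CPM (0.72 ± 0.039, adjusted p = 6.2e-14). P-body libraries were the higher ones in these 3 cell types, without overlap. Liver bud progenitors had 951 and 959 against 874 and 881 CPM (0.12 ± 0.048, adjusted p = 0.0331). That call was lost without P-body replicate 1 (0.13, adjusted p = 0.176), without P-body replicate 2 (0.12, adjusted p = 0.232), without cytoplasm replicate 2 (0.088, adjusted p = 0.139) and with DESeq2 (0.10, adjusted p = 0.104), and with library size alone the sign turned (-0.063, adjusted p = 0.37).

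Part of the coding sequences of this pair is shown where the proteins match and the mRNAs do not. For each pair shown, the stretch is the 30 aligned residues with the most identities, so a close match was fixed by that choice. Over all aligned positions 43.1% of residues were identical in KMT2C and KMT2D. In the stretch all 30 residues were identical and 17 of 30 codons differed. Each line is the coding strand 5′ to 3′ from GENCODE 44 on hg38, with G or C at the last base of a codon in capitals, which is 19 of 30 codons for KMT2C (chr7:152148601-152148690, minus strand, exon 53 of 60) and 23 of 30 for KMT2D (chr12:49026750-49026839, minus strand, exon 49 of 56).
KMT2C: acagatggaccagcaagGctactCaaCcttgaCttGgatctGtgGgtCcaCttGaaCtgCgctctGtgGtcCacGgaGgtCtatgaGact
KMT2D: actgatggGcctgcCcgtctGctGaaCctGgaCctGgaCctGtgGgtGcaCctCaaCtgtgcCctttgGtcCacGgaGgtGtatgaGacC

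KMT2A (MLL1), the gene broken in MLL-rearranged leukaemia, and KMT2B, its paralogue, showed a comparable split. KMT2A was at 1444 and 1411 CPM in HEK293T P-bodies against 682 and 695 CPM in cytoplasm (1.05 ± 0.049, adjusted p = 2.45e-27) and at 2868 and 2851 against 1627 and 1666 CPM in neurons (0.80 ± 0.066, adjusted p = 1.22e-06). Its log2 difference in mESC was 0.66 ± 0.041 (adjusted p = 1.03e-12). Where the fractions overlapped, in liver bud progenitors, it was 0.026 ± 0.044 (adjusted p = 0.705). KMT2B was at 20.7 and 20.0 CPM in liver bud P-bodies against 52.6 and 75.9 CPM in cytoplasm (-1.66 ± 0.13, adjusted p = 2.82e-18). It was depleted in the other cell types too, with log2 differences of -0.57 ± 0.13 in HEK293T (adjusted p = 0.000168), -0.85 ± 0.12 in neurons (adjusted p = 0.000112) and -0.78 ± 0.049 in mESC (adjusted p = 1.3e-12).

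SETD1A and SETD1B, the catalytic subunits that carry out most H3K4 trimethylation, were not split in this manner. SETD1A was depleted in all 4 cell types, with log2 differences of -0.55 ± 0.073 in HEK293T, -0.78 ± 0.12 in neurons, -0.45 ± 0.056 in mESC and -1.14 ± 0.11 in liver bud progenitors. In HEK293T its levels were 109 and 96.1 CPM in P-bodies and 141 and 158 CPM in cytoplasm (adjusted p = 2.57e-09), without overlap. SETD1B was depleted in liver bud progenitors, at 29.8 and 35.9 against 79.1 and 92.8 CPM (-1.39 ± 0.10, adjusted p = 1.16e-18). Elsewhere its fractions overlapped, with log2 differences of -0.0069 ± 0.089 in HEK293T, -0.12 ± 0.12 in neurons and -0.035 ± 0.090 in mESC. SETD7, which places a single methyl group on H3K4 and on many non-histone proteins, was enriched in the 3 human cell types. It was at 89.3 and 75.2 against 34.6 and 35.3 CPM in neurons (1.23 ± 0.15, adjusted p = 3.46e-05), its liver bud call (0.28 ± 0.075) was lost with library size alone (0.098, adjusted p = 0.354), and it had a log2 difference of -0.029 ± 0.091 in mESC (adjusted p = 0.82).

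Of the 4 H3K9 methyltransferases EHMT2 was depleted in all 4 cell types. EHMT1 (GLP) and EHMT2 (G9a) work as a heterodimer that places H3K9 mono- and dimethylation in euchromatin. EHMT2 was at 71.3 and 60.9 CPM in neuron P-bodies and 147 and 125 CPM in neuron cytoplasm (-1.04 ± 0.13, adjusted p = 4.83e-05). Its log2 difference was -0.97 ± 0.13 in HEK293T, -0.98 ± 0.12 in liver bud progenitors and -0.81 ± 0.13 in mESC. EHMT1 was enriched in mESC at 131 and 126 against 95.5 and 95.9 CPM (0.42 ± 0.061, adjusted p = 2.87e-06) and depleted in liver bud progenitors at 68.5 and 68.3 against 86.2 and 90.8 CPM (-0.37 ± 0.087, adjusted p = 0.000276). In HEK293T and neurons it passed the test in neither direction (-0.14 and -0.28). With library size alone its mESC enrichment was no longer called (0.021, adjusted p = 0.783).

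Parts of the catalytic SET domains of this pair are shown because their base composition is alike although the mRNAs differ in P-body level. Over 30 residues, 28 of them identical, 17 codons differed, and the last base was G or C in 16 of 30 codons of EHMT1 (chr9:137817521-137834354, plus strand, exons 24 to 26 of 27) and 17 of 30 of EHMT2 (chr6:31880843-31882703, minus strand, exons 24 to 26 of 27).
EHMT1: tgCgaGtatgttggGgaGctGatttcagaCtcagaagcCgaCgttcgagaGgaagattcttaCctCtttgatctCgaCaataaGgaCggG
EHMT2: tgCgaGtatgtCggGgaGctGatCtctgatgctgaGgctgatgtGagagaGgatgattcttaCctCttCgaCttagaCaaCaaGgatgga

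SETDB1, which places H3K9 trimethylation over transposable elements and zinc finger gene clusters, changed direction between cell types. In HEK293T it was at 357 and 341 CPM in P-bodies and 158 and 166 CPM in cytoplasm (1.11 ± 0.061, adjusted p = 5.4e-24). The order was the opposite in liver bud progenitors, 84.6 and 88.7 against 114 and 130.4 CPM (-0.50 ± 0.081, adjusted p = 4.2e-07). Neither pair of fractions overlapped. Smaller differences were called in neurons (0.28 ± 0.089, adjusted p = 0.0306) and in mESC (-0.17 ± 0.051, adjusted p = 0.00965). The neuron call was lost without P-body replicate 1 (0.21, adjusted p = 0.0963), without cytoplasm replicate 1 (0.26, adjusted p = 0.21) or without cytoplasm replicate 2 (0.28, adjusted p = 0.174), and the mESC call without P-body replicate 1 (-0.12, adjusted p = 0.145). SETDB2, its shorter relative, was enriched in mESC (1.57 ± 0.090, adjusted p = 2.22e-13) and in liver bud progenitors (1.19 ± 0.30, adjusted p = 0.000854). The latter rested on 57 and 94 counts in P-bodies and 27 and 25 in cytoplasm and was lost without P-body replicate 2 (0.85, adjusted p = 0.0727). Its differences in HEK293T (0.27 ± 0.19) and neurons (0.54 ± 0.41) did not pass. Human SETDB2 also shares exons with a readthrough transcript into PHF11, and reads of that transcript cannot be told apart from its own here.

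The H3K36 methyltransferases were enriched in P-bodies or not called. All 4 (SETD2, NSD1, NSD2 and NSD3) were enriched in HEK293T and in mESC, 3 of 4 in liver bud progenitors and 3 of 4 in neurons, and none was depleted, although with library size alone Nsd2 turned negative (-0.16, adjusted p = 0.0254) and Nsd3 lost its call in mESC (0.038, adjusted p = 0.638). SETD2, the only enzyme of the group that trimethylates H3K36 behind elongating RNA polymerase, was at 983 and 1001 CPM in HEK293T P-bodies and 501 and 503 CPM in cytoplasm (0.98 ± 0.051, adjusted p = 3.25e-25). In mESC it was at 1075 and 1084 against 562 and 531 CPM (0.98 ± 0.038, adjusted p = 1.24e-16). Its P-body libraries were the higher ones in all 4 cell types, with log2 differences of 0.49 ± 0.049 in liver bud progenitors and 0.61 ± 0.076 in neurons. NSD1, a dimethylating enzyme mutated in Sotos syndrome, was enriched in all 4 cell types, from 0.32 ± 0.047 in liver bud progenitors to 0.95 ± 0.050 in HEK293T. NSD2 was enriched in HEK293T (0.55 ± 0.065), neurons (0.29 ± 0.083) and mESC (0.24 ± 0.059), and had 0.15 ± 0.073 in liver bud progenitors (adjusted p = 0.0979). Its neuron call was lost without cytoplasm replicate 1 (0.30, adjusted p = 0.118) or replicate 2 (0.25, adjusted p = 0.206). NSD3 was enriched in HEK293T (0.49 ± 0.059), liver bud progenitors (0.49 ± 0.059) and mESC (0.44 ± 0.067), with 0.22 ± 0.096 in neurons (adjusted p = 0.113).

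The H4K20 methyltransferases divide the work by methyl state, with KMT5A placing the first group and KMT5B and KMT5C adding the next ones. KMT5B was at 96.7 and 104 CPM in liver bud P-bodies and 45.1 and 51.9 CPM in cytoplasm (1.04 ± 0.093, adjusted p = 1.32e-15). It was at 159 and 153 against 67.7 and 68.2 CPM in neurons (1.2 ± 0.11, adjusted p = 3.38e-06). P-body libraries were the higher ones there and in HEK293T (0.58 ± 0.090) and mESC (1.06 ± 0.074). KMT5C was depleted in HEK293T, at 3.43 and 3.13 against 4.74 and 7.58 CPM (-0.91 ± 0.26, adjusted p = 0.0028). It was also depleted in liver bud progenitors (-0.70 ± 0.20, adjusted p = 0.00371) and neurons (-0.88 ± 0.31, adjusted p = 0.0481), and in mESC its difference was -0.13 ± 0.059 (adjusted p = 0.071). Its levels were low in human cells, and its calls were lost without HEK293T cytoplasm replicate 2 (-0.52, adjusted p = 0.216), liver bud P-body replicate 1 (-0.53, adjusted p = 0.0694) and neuron cytoplasm replicate 1 (-0.50, adjusted p = 0.565), and with DESeq2 in HEK293T (-0.82, adjusted p = 0.0808) and neurons (-0.82, adjusted p = 0.106). KMT5A was enriched in HEK293T (0.83 ± 0.085), mESC (0.72 ± 0.051) and liver bud progenitors (0.46 ± 0.15, adjusted p = 0.0112), the last lost without P-body replicate 1 (0.40, adjusted p = 0.0856) or cytoplasm replicate 1 (0.38, adjusted p = 0.108) and with DESeq2 (0.44, adjusted p = 0.115) or library size alone (0.27, adjusted p = 0.159). Its neuron difference was 0.54 ± 0.24 (adjusted p = 0.113).

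KMT5B and KMT5C are shown over 30 aligned residues, 27 of them identical, because the contrast in codon endings is wide. G or C ended 10 of 30 codons of KMT5B (chr11:68180200-68185869, minus strand, exons 3 to 4 of 11) and 25 of 30 of KMT5C (chr19:55341958-55342215, plus strand, exons 2 to 3 of 9), and 23 codons differed.
KMT5B: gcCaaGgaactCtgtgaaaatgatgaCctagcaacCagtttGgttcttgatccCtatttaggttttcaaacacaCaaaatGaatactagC
KMT5C: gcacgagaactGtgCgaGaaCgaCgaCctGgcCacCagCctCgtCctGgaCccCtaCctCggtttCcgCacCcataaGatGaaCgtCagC

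Among the other SET domain proteins SETD3, which methylates a histidine of actin, was enriched in liver bud progenitors at 129.5 and 131 against 63.0 and 60.7 CPM (1.08 ± 0.083, adjusted p = 3.1e-18). It was also enriched in HEK293T (0.34 ± 0.073) and in mESC (0.54 ± 0.10), the latter lost with library size alone (0.14, adjusted p = 0.24), and its neuron value was 0.25 ± 0.16 (adjusted p = 0.26). SETD5, a chromatin protein linked to intellectual disability, was enriched in HEK293T at 569 and 551 against 371 and 377 CPM (0.58 ± 0.054, adjusted p = 1.93e-14). It was depleted in liver bud progenitors at 637 and 646 against 763 and 759 CPM (-0.25 ± 0.050, adjusted p = 3.38e-05). The fractions overlapped in neurons (0.020 ± 0.078), and the mESC enrichment (0.20 ± 0.037, adjusted p = 9.27e-05) turned to depletion with library size alone (-0.20, adjusted p = 7.4e-05).

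SETD6, which methylates the NF-kB subunit RELA, was enriched in HEK293T at 39.2 and 47.5 against 31.6 and 30.0 CPM (0.50 ± 0.11, adjusted p = 0.000174) and depleted in mESC at 28.3 and 30.0 against 43.8 and 41.9 CPM (-0.56 ± 0.10, adjusted p = 7.69e-05). SETD4 was depleted in liver bud progenitors (-1.28 ± 0.49, adjusted p = 0.0303), from 9 and 14 counts in P-bodies and 15 and 30 in cytoplasm. That call was lost without P-body replicate 1 (-1.05, adjusted p = 0.146), without cytoplasm replicate 2 (-0.87, adjusted p = 0.42) and with DESeq2 (-1.3, adjusted p = 0.173). SETD6 had -0.19 ± 0.19 in liver bud progenitors and 0.39 ± 0.31 in neurons, and SETD4 had -0.25 ± 0.39 in HEK293T, -1.81 ± 0.81 in neurons and -0.65 ± 0.61 in mESC, all short of the threshold. SETD9 had log2 differences of -0.22 ± 0.25 in HEK293T, 0.32 ± 0.73 in neurons and 0.68 ± 0.35 in liver bud progenitors, none of which passed the test.

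Turning to the demethylases, KDM1A (LSD1), the FAD-dependent enzyme of the CoREST complex, was depleted in the 3 human cell types. In HEK293T it was at 55.4 and 54.1 CPM in P-bodies and 130.2 and 121 CPM in cytoplasm (-1.2 ± 0.079, adjusted p = 2.23e-20). It was depleted in neurons (-0.64 ± 0.12, adjusted p = 0.00156) and in liver bud progenitors (-0.28 ± 0.077, adjusted p = 0.00208), where it was lost without P-body replicate 2 (-0.21, adjusted p = 0.125). In mESC the difference was 0.044 ± 0.057 (adjusted p = 0.558). KDM1B (LSD2), needed to set maternal imprints in oocytes, was enriched in liver bud progenitors at 32.5 and 40.3 against 22.1 and 20.6 CPM (0.77 ± 0.14, adjusted p = 3.13e-06). It passed the test in no other cell type, with 0.0039 ± 0.094 in HEK293T, -0.55 ± 0.20 in neurons and 0.20 ± 0.10 in mESC.

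KDM2A and KDM2B bind unmethylated CpG islands through a zinc finger and remove H3K36 dimethylation, and KDM2B also brings a variant Polycomb complex there. Both were depleted in liver bud progenitors, KDM2A at 105 and 107 against 138 and 156 CPM (-0.47 ± 0.077, adjusted p = 3.65e-07) and KDM2B at 69.0 and 70.7 against 112 and 118 CPM (-0.72 ± 0.083, adjusted p = 1.58e-11). Neither passed the test elsewhere, with log2 differences from -0.31 to 0.19.

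Of the KDM3, KDM4 and KDM7 enzymes, which erase H3K9 methylation and in part H3K36 or H3K27 methylation, KDM3A and KDM7A were enriched in all 4 cell types. KDM3A, a hypoxia-inducible H3K9 demethylase, was at 597 and 587 CPM in mESC P-bodies and 294 and 306 CPM in cytoplasm (0.98 ± 0.042, adjusted p = 5.68e-16). It was also enriched in HEK293T (1.19 ± 0.063), neurons (1.15 ± 0.11) and liver bud progenitors (0.40 ± 0.099, adjusted p = 0.000613), the last of which was lost without cytoplasm replicate 1 (0.24, adjusted p = 0.0705) and with library size alone (0.21, adjusted p = 0.0801). Its paralogue KDM3B was depleted in HEK293T (-0.43 ± 0.070), liver bud progenitors (-0.68 ± 0.065) and mESC (-0.33 ± 0.045), with -0.16 ± 0.094 in neurons (adjusted p = 0.221). KDM7A was at 80.4 and 76.1 CPM in neuron P-bodies and 27.5 and 27.1 CPM in neuron cytoplasm (1.52 ± 0.15, adjusted p = 5.44e-06), and had 0.72 ± 0.082 in HEK293T, 0.74 ± 0.096 in liver bud progenitors and 1.15 ± 0.060 in mESC.

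The KDM4 enzymes differed from each other. KDM4B was depleted in the 3 human cell types (-0.97 ± 0.21 in HEK293T, -0.65 ± 0.20 in neurons and -1.0 ± 0.18 in liver bud progenitors). The neuron call was lost without cytoplasm replicate 1 (-0.62, adjusted p = 0.206) or replicate 2 (-0.71, adjusted p = 0.106) and with DESeq2 (-0.60, adjusted p = 0.078), and the mESC difference was -0.33 ± 0.19 (adjusted p = 0.15). KDM4C was enriched in mESC at 264 and 260.4 against 118 and 122 CPM (1.13 ± 0.051, adjusted p = 2.32e-15) and in HEK293T at 26.6 and 24.4 against 20.1 and 15.7 CPM (0.51 ± 0.14, adjusted p = 0.00197). It was depleted in liver bud progenitors, at 24.8 and 28.9 against 35.0 and 40.2 CPM (-0.49 ± 0.13, adjusted p = 0.00138). Without HEK293T cytoplasm replicate 2 the first human call was lost (0.35, adjusted p = 0.0803), and its neuron difference was 0.15 ± 0.22 (adjusted p = 0.639). Without liver bud P-body replicate 1 the depletion was lost too (-0.38, adjusted p = 0.0516).

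KDM4A was enriched in mESC (0.29 ± 0.084, adjusted p = 0.00596), a call lost without P-body replicate 1 (0.26, adjusted p = 0.0613), cytoplasm replicate 1 (0.23, adjusted p = 0.051) and with DESeq2 (0.29, adjusted p = 0.0709), and turned in sign by library size alone (-0.11, adjusted p = 0.269). Its differences in HEK293T (0.079 ± 0.11), neurons (0.053 ± 0.15) and liver bud progenitors (-0.18 ± 0.12) did not pass the test. KDM4D, a short intronless relative, was enriched in HEK293T at 69.6 and 64.8 against 23.5 and 24.6 CPM (1.48 ± 0.10, adjusted p = 4.85e-19) and in neurons (1.32 ± 0.31, adjusted p = 0.00619). The neuron call was lost without cytoplasm replicate 1 (1.22, adjusted p = 0.057), and the liver bud value was 0.16 ± 0.28 (adjusted p = 0.727). KDM4E was called in neurons from 41 and 41 counts in P-bodies and 4 and 2 in cytoplasm, values near the floor of 3 counts for which no fold is given. KDM4D and KDM4E are near copies of each other, so reads may have been divided between them, and values of KDM4A, KMT2E and KDM7A may hold reads of their antisense or divergent neighbours KDM4A-AS1, KMT2E-AS1 and KDM7A-DT, because use of strand in counting is not given in the sources used here.

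The KDM5 enzymes remove H3K4 di- and trimethylation, and KDM5A and KDM5C went opposite ways in human cells. KDM5C, an X-linked gene mutated in intellectual disability, was at 105 and 120.4 CPM in liver bud P-bodies and 223 and 253 CPM in cytoplasm (-1.08 ± 0.074, adjusted p = 1.68e-20). In HEK293T it was at 85.9 and 73.7 against 126 and 131 CPM (-0.69 ± 0.076, adjusted p = 1.07e-11). It was also depleted in neurons (-0.83 ± 0.10, adjusted p = 4.4e-05), whereas its mESC fractions overlapped (-0.088 ± 0.053). KDM5A was enriched in all 4 cell types, from 0.33 ± 0.053 in mESC to 0.98 ± 0.10 in neurons, although with library size alone its mESC value turned negative (-0.076, adjusted p = 0.225).

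KDM5B was at 903 and 896 CPM in neuron P-bodies and 457 and 461 CPM in neuron cytoplasm (0.97 ± 0.075, adjusted p = 7.06e-07) and was enriched in HEK293T as well (0.53 ± 0.071, adjusted p = 3.43e-09). In liver bud progenitors it was at 495 and 506 against 549 and 549 CPM (-0.13 ± 0.053, adjusted p = 0.0388). That small depletion was lost without P-body replicate 1 (-0.12, adjusted p = 0.273) or replicate 2 (-0.15, adjusted p = 0.136).

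The H3K27 demethylases differed from cytoplasm in opposite directions in all 4 cell types. KDM6A (UTX), an X-linked subunit of the KMT2C and KMT2D complexes, was at 988 and 969 CPM in mESC P-bodies and 368 and 332 CPM in cytoplasm (1.48 ± 0.044, adjusted p = 6.44e-19). In liver bud progenitors it was at 682 and 697 against 451 and 426 CPM (0.65 ± 0.053, adjusted p = 4.11e-17). P-body libraries were the higher ones in both, and likewise in HEK293T (0.90 ± 0.061) and neurons (1.38 ± 0.12). KDM6B (JMJD3), an inducible enzyme that acts during differentiation and inflammation, was at 53.7 and 59.0 CPM in mESC P-bodies and 109 and 120.5 CPM in cytoplasm (-1.03 ± 0.075, adjusted p = 2.29e-11). Liver bud progenitors had 15.6 and 18.1 against 43.0 and 50.2 CPM (-1.47 ± 0.14, adjusted p = 6.72e-15). Cytoplasm libraries were the higher ones in both, as in HEK293T (-0.90 ± 0.17) and neurons (-0.79 ± 0.12).

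Part of the Jumonji C domain, which binds the iron and removes the methyl groups, is shown for this pair. It is again the stretch with the most identities, while 38.5% of all aligned residues were identical. All 30 residues were identical and 20 codons differed, and the last base was G or C in 11 of 30 codons of KDM6A (chrX:45083530-45085875, plus strand, exons 24 to 25 of 30) and in 28 of 30 of KDM6B (chr17:7851718-7851961, plus strand, exons 17 to 18 of 22).
KDM6A: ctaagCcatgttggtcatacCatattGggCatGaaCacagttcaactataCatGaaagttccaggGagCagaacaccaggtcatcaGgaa
KDM6B: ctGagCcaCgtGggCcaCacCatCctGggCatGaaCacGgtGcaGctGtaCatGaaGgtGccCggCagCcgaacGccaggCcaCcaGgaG

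**Figure D2:**
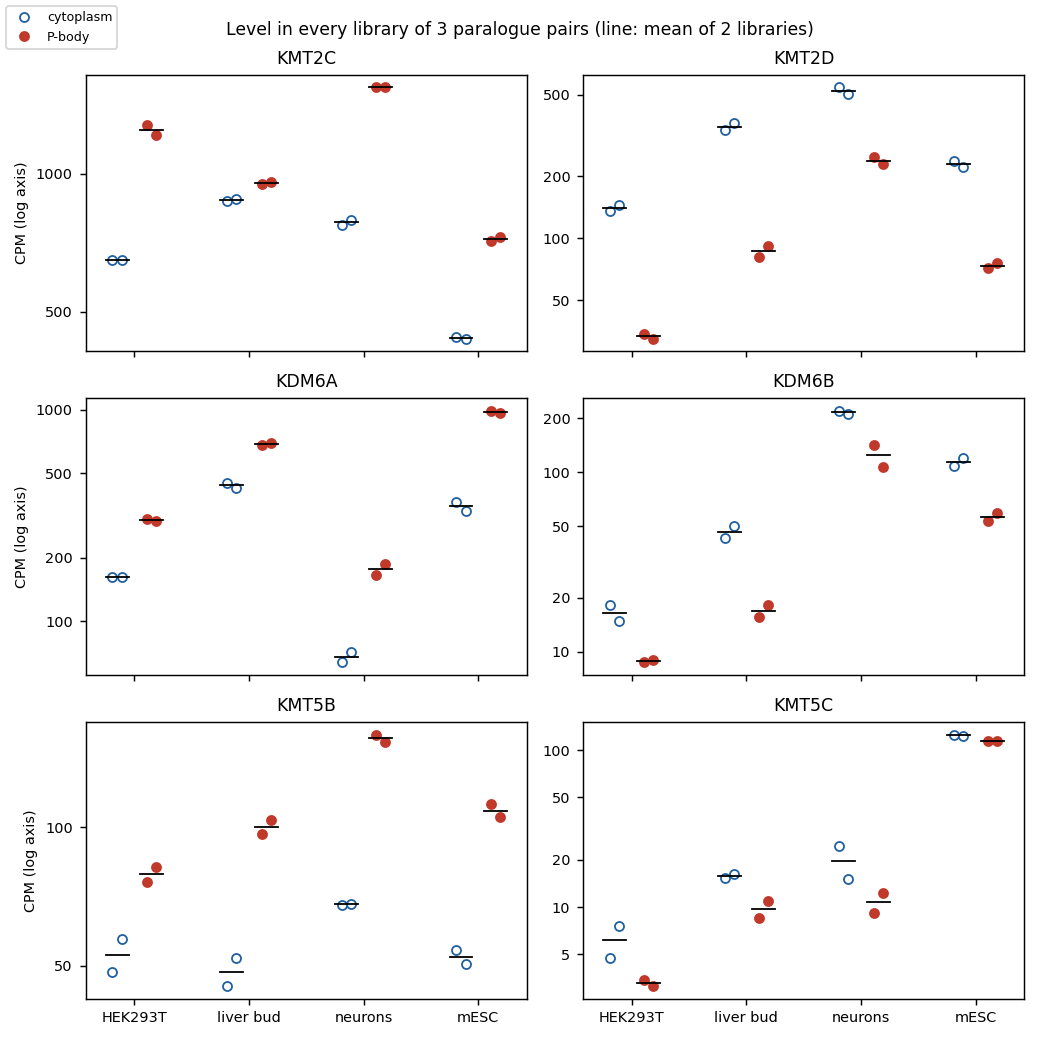
CPM (y axis, log scale) in every library of KMT2C, KMT2D, KDM6A, KDM6B, KMT5B and KMT5C in the 4 cell types (x axis), with open circles for cytoplasm, filled circles for P-bodies and a line at the mean of 2 libraries. The first gene of each pair lies higher in P-bodies and the other lies higher in cytoplasm in each cell type, by little for KMT2C in liver bud progenitors (log2 0.12) and for KMT5C in mESC (-0.13).

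To set close paralogues against each other without a scaling factor, the count of one was divided by that of the other in each library. The ratio carries the lengths of the mRNAs, so only its change between fractions is read. The KMT2C to KMT2D ratio was 37.1 and 37.3 in HEK293T P-bodies and 4.77 and 4.47 in cytoplasm, 8.05 times higher in P-bodies, and in neurons 6.23 and 6.73 against 1.42 and 1.58, 4.32 times higher. The KDM6A to KDM6B ratio was 18.4 and 16.4 against 3.38 and 2.76 in mESC, 5.70 times higher in P-bodies. In neurons the same ratio was 0.291 and 0.339 in cytoplasm and 1.18 and 1.74 in P-bodies, so KDM6B gave more counts in cytoplasm and KDM6A more in P-bodies. The KDM3A to KDM3B ratio was 0.871 and 0.772 in HEK293T cytoplasm against 2.52 and 2.49 in P-bodies. In mESC it was 0.778 and 0.767 against 1.88 and 1.95. For this pair a count ratio below 1 does not mean less KDM3A, because its transcript is shorter. Per kilobase of the longest transcript, mean cytoplasmic levels were 24.8 for KDM3A and 22.2 CPM for KDM3B in HEK293T, and 62.2 and 61.0 in mESC.

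Of 8 such pairs, 6 shifted toward the first gene in P-bodies in all 4 cell types with no overlap between fractions. The pairs were chosen with earlier results of these data known, and no share over other pairs of genes was computed, so this count is a description only. The P-body ratio divided by the cytoplasm ratio ranged over cell types from 2.71 to 3.16 for KMT2A to KMT2B, from 4.32 to 8.05 for KMT2C to KMT2D, from 3.46 to 5.70 for KDM6A to KDM6B, from 2.28 to 4.14 for KMT5B to KMT5C, from 1.53 to 2.36 for EHMT1 to EHMT2 and from 2.13 to 3.06 for KDM3A to KDM3B. The KDM2A to KDM2B ratio shifted by less. It was 1.19 times higher in P-bodies in HEK293T, 1.19 in liver bud progenitors and 1.13 in neurons, without overlap, and 0.894 times the cytoplasm ratio in mESC, where the fractions overlapped. The SETD1A to SETD1B ratio was lower in P-bodies in HEK293T (0.687 times the cytoplasm ratio), neurons (0.634) and mESC (0.751) and higher in liver bud progenitors (1.19), without overlap in any of them. With 2 libraries per fraction an exact permutation test of such a ratio cannot go below a two-sided p of 0.333, so no test is given.

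**Figure D3:**
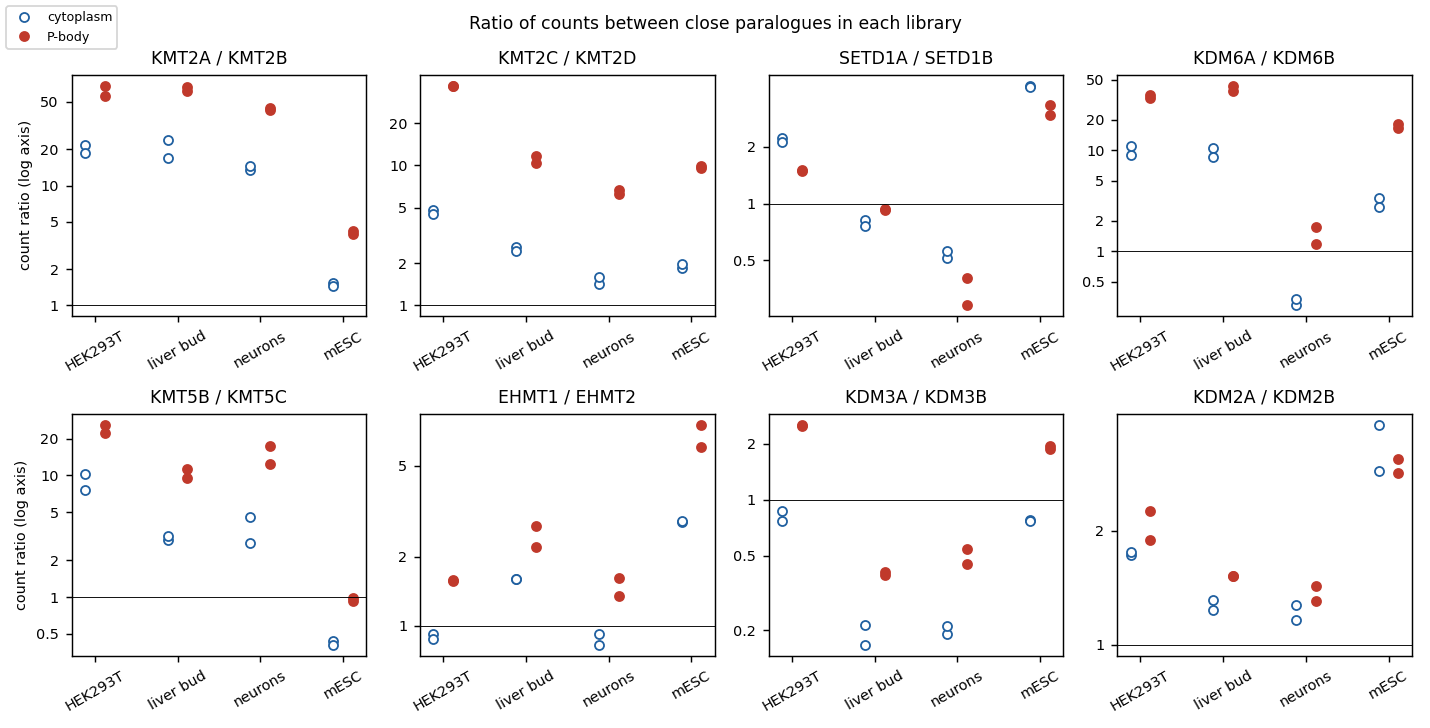
Ratio of the counts of 2 paralogues in each library (y axis, log scale) for 8 pairs in 4 cell types (x axis), with open circles for cytoplasm and filled circles for P-bodies, 2 libraries each. For 6 pairs the filled circles lie above the open ones in every cell type, whereas for KDM2A to KDM2B they do so by at most 1.19 times and for SETD1A to SETD1B they lie below in 3 of 4 cell types.

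Most of the paralogues that parted also differed in the base composition of their coding sequences. Aligned residues were identical in 38.5 to 56.9% of positions over the 8 pairs. The share of codons that end in G or C (GC3) in the longest coding transcript was 43.9% for KMT2A and 66.3% for KMT2B, 37.4% for KMT2C and 61.0% for KMT2D, 39.1% for KDM6A and 68.8% for KDM6B, 39.7% for KMT5B and 79.0% for KMT5C, and 41.3% for KDM3A and 52.5% for KDM3B. In each of these 5 pairs the gene with the lower GC3 was the one shifted to P-bodies. The 30-codon stretches with the most identities did not all follow the whole sequences. In them G or C ended 17 codons of KMT2A and 18 of KMT2B, and 10 of KDM3A and 8 of KDM3B. These GC3 values are human. The mouse transcripts had the same order in each of them. The gap was narrow for Kmt2a and Kmt2b (53.2 and 56.6%), whose ratio was still 2.71 times higher in mESC P-bodies. KDM2A and KDM2B, at 59.2 and 77.3%, shifted the same way in human cells but by at most 1.19 times. EHMT1 and EHMT2 parted with nearly equal GC3 in human cells (71.1 and 71.3%). Mouse Ehmt1 and Ehmt2 had 57.6 and 71.8%, and their ratio was 2.36 times higher in mESC P-bodies. SETD1A and SETD1B, at 71.0 and 76.9%, went against this order in 3 of 4 cell types, where the ratio moved away from SETD1A. KDM1A and KDM1B, not among the 8 pairs, had a GC3 of 46 and 49.3%, and KDM1A had the lower log2 difference in all 4 cell types.

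Over all members, GC3 and the log2 difference between P-body and cytoplasm ran opposite ways. The rank correlation (Spearman's rho) was -0.59 for HEK293T, -0.61 for neurons and -0.74 for liver bud progenitors (41 members each), and -0.71 for mESC (38 members). Over all genes that averaged 1 CPM or more and had a coding transcript in GENCODE, the values were -0.51 for HEK293T (11786 genes), -0.49 for neurons (13135), -0.57 for liver bud progenitors (13080) and -0.52 for mESC (11543), so the relation was not confined to histone methylation enzymes. These are descriptions across genes that share the same libraries. Among members the median GC3 of those enriched and those depleted was 44 and 68.4% in HEK293T, 43.4 and 68.8% in neurons, 43.5 and 58.2% in mESC and 41.3 and 66.3% in liver bud progenitors. With the shortest coding transcript in place of the longest, rho was -0.42 for HEK293T, -0.50 for neurons, -0.59 for liver bud progenitors and -0.75 for mESC.

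Length was compared in the same way. The GC content of the whole transcript gave rho of -0.63, -0.84, -0.75 and -0.80, in the order HEK293T, liver bud progenitors, neurons and mESC, whereas coding length gave 0.097, -0.28, -0.094 and -0.059 and 3′UTR length gave 0.22, 0.22, 0.29 and 0.15. With the shortest coding transcript, coding length gave -0.35, -0.45, -0.26 and -0.046 and 3′UTR length -0.071, -0.10, 0.089 and 0.13 in that order, so the values for length depended on the transcript chosen, also in sign for coding length in HEK293T and for 3′UTR length in HEK293T and liver bud progenitors. Some members stood off the trend. KDM1A, with a GC3 of 46%, was depleted in the 3 human cell types, while SETD6, at 68.3%, and KMT5A, at 63.1%, were enriched in HEK293T. The part of base composition in these values was not tested.

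**Figure D4:**
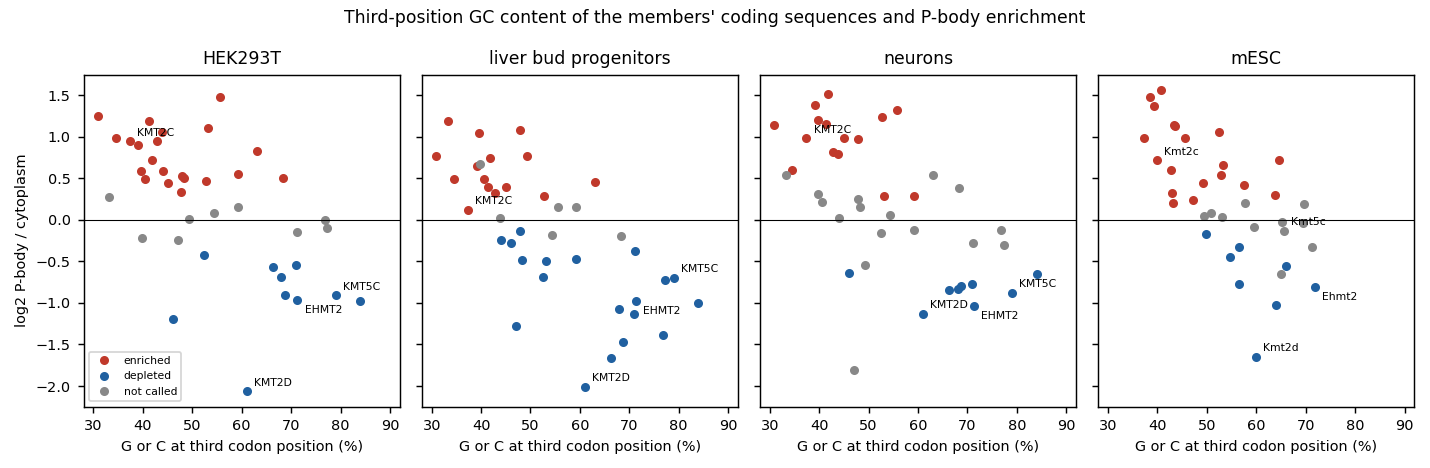
Log2 difference between P-body and cytoplasm (y axis) against the percentage of codons that end in G or C (x axis) for each member in 4 cell types, 1 point per gene, in red where enriched, blue where depleted and grey where neither. Spearman's rho was -0.59, -0.74, -0.61 and -0.71 from left to right, and KDM4E is not drawn.

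Neurons and liver bud progenitors share the stem cell line and the library type, and the difference of their P-body enrichments was tested as an interaction over 8 libraries. Enrichment was higher in neurons for 17 of 41 members and higher in liver bud progenitors for 2, against 9.21% and 8.5% of all genes. The members' median difference was 0.37 on the log2 scale, against 0.23 over all genes and -0.040 over those with a mean of 1 CPM or more, of which 12.3 and 12.5% were called. The median over all genes rested on the neuron P-body libraries: it was 0.033 without replicate 1 and 0.0022 without replicate 2, when the members' median was 0.30 in each case. With library size alone the share of calls toward neurons among all genes went from 52.0 to 78.9%, and with a filter on low counts to 62.9%, so the balance of directions depends on the scaling and on the filter. By role, 7 of 8 H3K4 methyltransferases had the higher enrichment in neurons, against 1 of 4 H3K36, 1 of 4 H3K9 and 0 of 3 H4K20 methyltransferases. Both KDM6 genes and 2 of 3 KDM5 genes did so too.

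KDM5B had the smallest p. Its level in this fit was 937 and 913 CPM in neuron P-bodies and 471 and 469.5 in neuron cytoplasm, but 480.0 and 499 in liver bud P-bodies against 534 and 532 in liver bud cytoplasm, a difference of enrichments of 1.1 ± 0.088 (adjusted p = 6.69e-07). KMT2C followed, with 1601 and 1573 against 795 and 809 CPM in neurons and 923 and 946 against 849.9 and 853 CPM in liver bud progenitors (0.85 ± 0.080, adjusted p = 3.02e-06). For both genes the neuron P-body libraries were the highest of the 8, and the liver bud fractions lay close together. KMT2A gave 0.76 ± 0.077 (adjusted p = 5.97e-06). For KMT2B (0.80), KMT2D (0.87) and KDM6B (0.67) the positive difference was a weaker depletion in neurons and not an enrichment. SETD1B (1.26) and KDM3B (0.51) were depleted in liver bud progenitors and not called in neurons (-0.12 and -0.16).

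KDM1B and SETD3 went the other way. KDM1B was at 21.3 and 21.6 CPM in neuron P-bodies and 30.6 and 31.9 CPM in neuron cytoplasm, against 31.6 and 39.7 CPM in liver bud P-bodies and 21.5 and 20.0 CPM in liver bud cytoplasm (-1.33 ± 0.24, adjusted p = 0.00132). SETD3 was at 52.9 and 64.0 against 48.6 and 49.6 CPM in neurons and 126 and 129 against 61.3 and 58.8 CPM in liver bud progenitors (-0.84 ± 0.16, adjusted p = 0.0021). In both the liver bud P-bodies lay above the liver bud cytoplasm by more than the neuron fractions differed. With library size alone the SETD3 difference was no longer called (-0.48, adjusted p = 0.0732).

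**Figure D5:**
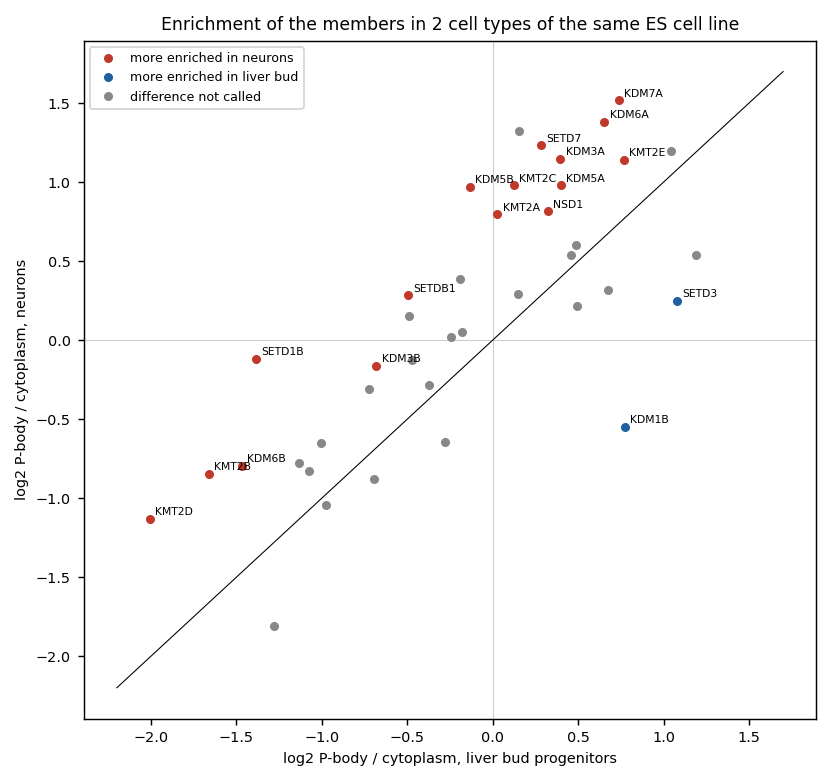
Log2 difference between P-body and cytoplasm in neurons (y axis) against that in liver bud progenitors (x axis), 1 point per member without KDM4E, with the line of equal enrichment. Red points were more enriched in neurons and blue points (KDM1B and SETD3) more enriched in liver bud progenitors by the interaction test, and grey points passed in neither direction.

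The levels in the cytoplasmic fractions of these cells, pellets that still held P-bodies, were compared directly. Of 41 members, 21 were higher in neuron cytoplasm and 6 higher in liver bud cytoplasm, against 26% and 25.8% of all genes, with a median log2 difference of 0.57 between neurons and liver bud progenitors against -0.16 over all genes (-0.017 without liver bud cytoplasm replicate 2) and 0.064 over those with a mean of 1 CPM or more, of which 36.9 and 34.5% were called. With library size alone 18 members were higher in the neurons and 16 lower, and the share of all calls that were higher in neurons moved by -13.7 percentage points. KDM6B was at 237 and 228 CPM in neurons and 40.1 and 47.0 CPM in liver bud progenitors (2.41 ± 0.099, adjusted p = 7.65e-35). Its paralogue KDM6A showed the reverse, at 69.1 and 77.3 against 420.4 and 399 CPM (-2.48 ± 0.087, adjusted p = 4.76e-39). The cytoplasmic difference thus had opposite signs for the 2 enzymes, while KDM6A was enriched in P-bodies and KDM6B depleted from them in both cell types.

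SETD1B (1.53 ± 0.093, adjusted p = 7.95e-25) and NSD2 (1.33 ± 0.083, adjusted p = 2.37e-24) were also higher in neuron cytoplasm, as were all 4 H3K9 methyltransferases and both KDM1 enzymes, although KDM1B lost its call with library size alone (0.34, adjusted p = 0.0777). The call of SETDB2 among these (1.02 ± 0.33, adjusted p = 0.00663) was lost without liver bud cytoplasm replicate 2 (0.87, adjusted p = 0.113), without neuron cytoplasm replicate 2 (0.67, adjusted p = 0.163) and with DESeq2 (0.99, adjusted p = 0.124). SETD7 was at 37.3 and 38.1 CPM in neurons and 105 and 109 CPM in liver bud progenitors (-1.5 ± 0.11, adjusted p = 1.97e-20). NSD1 was lower in neurons as well (-0.92 ± 0.072, adjusted p = 4.14e-19). Both of these were more enriched in neuron P-bodies than in liver bud P-bodies, by 0.94 and 0.49 on the log2 scale. KMT2E, KMT2C and KDM5B, enriched in neuron P-bodies, had cytoplasmic differences of -0.0075 ± 0.070, 0.044 ± 0.069 and -0.050 ± 0.073 between the cell types, none of which passed the test.

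Per kilobase of the longest transcript, KMT2E had the highest level of the members in P-bodies of all 4 cell types, at 196 ± 2.35 CPM per kb in HEK293T, 209.7 ± 2.0 in neurons, 243 ± 3.21 in mESC and 188 ± 6.42 in liver bud progenitors (mean ± SD, n = 2). In cytoplasm KMT2E led in HEK293T at 82.4 ± 2.69 CPM per kb, SETD5 led in liver bud progenitors at 135 ± 0.495 and in neurons at 109 ± 1.55, and Kmt5a led in mESC at 114 ± 1.28. The order of members by level per length was thus not the same in the 2 fractions.

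Genes that work with these enzymes were counted from lists of related proteins. Of all genes tested, 19.3% were enriched and 22.8% depleted in HEK293T, 14.6 and 14.1% in neurons, 25.8 and 20.6% in mESC and 21.4 and 17.1% in liver bud progenitors. Among genes that averaged 1 CPM or more the shares were 32.0 and 38.0%, 19.9 and 21.1%, 33.8 and 20.2%, and 32.3 and 24.6% in the same order. The other lysine methyltransferases (14 genes) had 6 enriched and 4 depleted in HEK293T, 7 and 1 in neurons, 8 and 3 in mESC and 6 and 1 in liver bud progenitors. EZH2, the H3K27 methyltransferase, was at 707 and 709 CPM in HEK293T P-bodies and 265 and 250.5 CPM in cytoplasm (1.46 ± 0.055, adjusted p = 1.82e-31). Other Jumonji C proteins (13 genes) had 5 and 4, 2 and 3, 7 and 3, and 3 and 4 in the same order of cell types, with JMJD1C, a relative of the KDM3 enzymes, at 0.78 ± 0.045 in liver bud progenitors (adjusted p = 3.95e-24). The non-catalytic subunits of the H3K4 methyltransferase complexes (13 human and 11 mouse genes) had 6 and 5, 5 and 4, 6 and 2, and 4 and 4 in that order. HCFC1, a subunit that serves the SETD1 and KMT2 complexes, was depleted in HEK293T (-1.85 ± 0.068, adjusted p = 4.64e-32).

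Partners of KDM1A in the CoREST complex (11 genes) had 6 enriched and 3 depleted in HEK293T, 5 and 2 in neurons, 7 and 2 in mESC and 4 and 3 in liver bud progenitors. ZMYM2, a zinc finger subunit, was at 1.12 ± 0.056 in HEK293T, opposite in sign to KDM1A itself. Partners of the H3K9 methyltransferases (11 human and 10 mouse genes) had 6 and 3, 7 and 3, 7 and 2, and 8 and 2 in the same order. ZNF644, which brings EHMT1 and EHMT2 to DNA, was enriched in liver bud progenitors (1.24 ± 0.052, adjusted p = 3.63e-31). The protein arginine methyltransferases (9 genes), which modify other residues of histones, had 0 enriched and 7 depleted in HEK293T, 0 and 4 in neurons, 0 and 3 in mESC and 1 and 3 in liver bud progenitors. The depletions beside the shares of all genes are thus 7 of 9 against 22.8% in HEK293T, 4 of 9 against 14.1% in neurons, 3 of 9 against 20.6% in mESC and 3 of 9 against 17.1% in liver bud progenitors. Among genes that averaged 1 CPM or more the shares depleted were 38.0, 21.1, 20.2 and 24.6% in the same order. PRMT1, the main enzyme of the family, was at 55.2 and 56.5 CPM in HEK293T P-bodies against 159 and 179 CPM in cytoplasm (-1.6 ± 0.076, adjusted p = 6.05e-27).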

How the data were processed

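RNA of sorted GFP-LSM14A particles and of the cytoplasmic fraction was measured in 16 libraries (8 groups of 2 biologically independent samples, per the study). The authors deposited whole-number counts per gene symbol for hg38 and mm10 after removing genes under 10 reads. Their methods name the nf-core RNA-seq pipeline with salmon for snapTotal-seq and HISAT2 with featureCounts for Smart-seq, with UCSC refGene annotation, and the route behind each column is not given in the sources used here. The authors' own DESeq2 comparison tables, which hold fold changes and p-values, were not used. Groups came from the labels.

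The deposited counts entered edgeR 4.0.16 under R 4.3.3 and its quasi-likelihood test (TMM, no covariate, genes with any count in the libraries compared, two-sided, Benjamini-Hochberg adjusted p under 0.05 over all genes). The 4 libraries of a cell type were fitted together, 8 for the difference of enrichments, and 4 for the cytoplasm comparison. Standard errors are the log2 difference divided by the square root of F. CPM were scaled by TMM within each comparison, so the same library differs slightly between comparisons. Total counts of 6368953 to 17972284 put the floor of 3 counts at 0.167 to 0.471 CPM, which covers counting error only. Coding sequences and lengths came from GENCODE 44 and M21, matched by symbol for all 41 and 38 members (Biopython 1.88 for alignment). Whole-gene comparisons with these features used genes that averaged 1 CPM or more, of which 89.0 to 95.3% had a coding transcript.

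As alternatives, RLE size factors, library size alone, DESeq2 1.42.0, filterByExpr, no ribosomal RNA genes, a replicate block, all human libraries in a single fit, and leaving out each library were run. The scripts were tested on simulated data. The members named with values were, for each fraction comparison, the 4 enriched and 4 depleted with the smallest p among those called (3 and 3 for the others), the members called in both directions, and 8 paralogue pairs. Other members are given for completeness of their role. The members, the lists and the pairs were chosen with earlier results of these data known.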

Additional observations from a re-analysis of the deposited data

Results flagged for a closer look

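The P-body enrichment of 19 members differed between neurons and liver bud progenitors by the test of the difference itself (edgeR quasi-likelihood interaction over 8 libraries, Benjamini-Hochberg adjusted p under 0.05 over all genes). Values are log2 enrichment in neurons minus that in liver bud progenitors. Among H3K4 methyltransferases they were KMT2A (0.76 ± 0.077), KMT2B (0.80 ± 0.21), KMT2C (0.85 ± 0.080), KMT2D (0.87 ± 0.12), KMT2E (0.37 ± 0.086), SETD1B (1.26 ± 0.19) and SETD7 (0.94 ± 0.16). Other methyltransferases were NSD1 (0.49 ± 0.10) and SETDB1 (0.77 ± 0.13), and SETD3 (-0.84 ± 0.16) had the opposite sign. Demethylases were KDM3A (0.74 ± 0.16), KDM3B (0.51 ± 0.12), KDM5A (0.58 ± 0.12), KDM5B (1.1 ± 0.088), KDM6A (0.72 ± 0.11), KDM6B (0.67 ± 0.20) and KDM7A (0.77 ± 0.17), and KDM1B (-1.33 ± 0.24) had the opposite sign. KDM4E, also called, gave a fitted value of 3.86 ± 0.90 from at most 41 counts per library, which depends on the prior count and is no fold. A positive value was not always an enrichment in neurons: KMT2B, KMT2D and KDM6B were depleted there, and SETD1B and KDM3B were not called.

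Some of these calls were lost when 1 library was left out. KDM6B was lost without any of 6 libraries: P-body replicate 1 (0.55, adjusted p = 0.167) or 2 (0.79, adjusted p = 0.054) or cytoplasm replicate 2 (0.55, adjusted p = 0.16) of liver bud progenitors, and P-body replicate 1 (0.36, adjusted p = 0.0966) or cytoplasm replicate 1 (0.63, adjusted p = 0.099) or 2 (0.54, adjusted p = 0.149) of neurons. KMT2B was lost without liver bud P-body replicate 1 (0.82, adjusted p = 0.0615) or 2 (0.79, adjusted p = 0.0712), liver bud cytoplasm replicate 2 (0.52, adjusted p = 0.115) and neuron cytoplasm replicate 1 (0.77, adjusted p = 0.0601) or 2 (0.67, adjusted p = 0.0951). KMT2E was lost without liver bud P-body replicate 1 (0.32, adjusted p = 0.062) or neuron cytoplasm replicate 1 (0.25, adjusted p = 0.106), KDM5A without neuron cytoplasm replicate 1 (0.44, adjusted p = 0.0525), KDM3B without neuron cytoplasm replicate 2 (0.38, adjusted p = 0.0872) and KDM4E without liver bud cytoplasm replicate 2 (3.38, adjusted p = 0.0637).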

How the results depend on the processing

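Of 163 calls of members over the 6 comparisons, 141 were kept under every alternative other than leaving out a library, and 5 changed sign, all with library size alone: KMT2C in liver bud progenitors (-0.063) and Kdm4a (-0.11), Kdm5a (-0.076), Nsd2 (-0.16) and Setd5 (-0.20) in mESC. Library size alone also gave members' medians of 0.21 in HEK293T, -0.20 in mESC, -0.32 in liver bud progenitors, 0.73 for the difference of enrichments and 0.19 for cytoplasm, 12 enriched and 19 depleted members in mESC, 28 and 1 for the difference of enrichments, and 16 members higher in liver bud cytoplasm. The HEK293T median was 0.43 with DESeq2, 0.43 with RLE size factors, 0.45 with filterByExpr and 0.46 in the fit of all human libraries, and 0.33 to 0.46 when a library was left out. The mESC median was 0.11 with filterByExpr and 0.19 to 0.25 when a library was left out. When a library was left out, the neuron median was 0.090 to 0.26 and the liver bud median -0.25 to -0.0066. The fit of all human libraries called 14 members depleted in neurons, with a median of 0.14. For the difference of enrichments, 4 members were higher in liver bud progenitors in that fit, and 2 to 4 when a library was left out (4 without neuron P-body replicate 1). The cause of these shifts was not tested.

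Replicate numbers did not pair the samples: same-numbered libraries of the fractions deviated with correlations of -0.043 to 0.036. With a replicate block all 163 calls were kept, and the counts of enriched and depleted members were 21 and 10 in HEK293T, 15 and 19 in liver bud progenitors, 17 and 12 in neurons, 20 and 8 in mESC, 19 and 4 for the difference of enrichments and 21 and 6 for cytoplasm. With 2 libraries per group and no independent scale between fractions, small differences such as that of KMT2C in liver bud progenitors are at the limit of what these libraries resolve.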
